A study of Xenopus laevis with 8 samples.

Results

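Genes that handle amino acids were examined in anterior endoderm of the frog Xenopus laevis, in embryos that carried an inducible form of Neurogenin 3. The members were taken by a rule on gene symbols, written with earlier results of these data known. They comprised the heavy chain genes slc3a1 and slc3a2, every gene whose symbol starts with slc1a, slc7a or slc38a, the aminoacyl-tRNA synthetases whose symbols end in ars, ars1 or ars2, and asns, atf4, chac1, ddit3, trib3 and sesn2. This gave 54 of the 11303 named genes on the array, each read from the brightest of its probe sets, and 10 pairs of homeologs measured on both sides. Xenopus laevis carries many genes as 2 homeologs, marked .L and .S. Probe sets for asns, chac1 and trib3 were not analysed here.

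All embryos had received mRNA for Ngn3-GR in 2 dorsal vegetal blastomeres at the 8-cell stage. The fusion joins the proneural factor Neurogenin 3 to a glucocorticoid receptor domain, which holds it inactive until dexamethasone is added. The DEX group (4 arrays) had 10 µM dexamethasone for 4 hours from stage 12, and the no_DEX group (4 arrays) had none. Endoderm was dissected from both groups at stage 15. Dexamethasone was not given to embryos without the fusion in the samples analysed here, so the effect of the activated fusion and that of the drug cannot be told apart.

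Amino acids enter cells through carriers of several families. The slc3a2 product, the CD98 heavy chain, carries no substrate itself. It brings light chains of the slc7a family to the cell surface, and each light chain sets which amino acids are exchanged. The slc1a and slc38a families include carriers of glutamine and small neutral amino acids. Inside the cell, aminoacyl-tRNA synthetases join each amino acid to its tRNA. The transcription factor ATF4 turns on transporter and synthetase genes when amino acids run short, and sestrin 2 reports leucine supply to the growth kinase complex mTORC1 in mammals.

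Levels are log2 signals as deposited, and changes are log2 of DEX over no_DEX. Brightness depends on the probes as well as the RNA, so bright and dim describe a signal and rank no gene's RNA above another's. The 17 array controls for tags that are not in the sample reached 4.40, which is taken as background here. Of the 54 members, 47 had a mean above it. Of the endoderm marker genes 14 of 15 measured were above background. So were 16 of 17 for neural plate, 10 of 11 for skeletal muscle, 7 of 7 for notochord, 10 of 10 for epidermis and 4 of 8 for blood, so these markers were present but do not single out endoderm. In such pieces of tissue, fewer cells of a type and less RNA per cell cannot be told apart. Arrays that share a replicate number deviated from their group means together (correlations of 0.63 to 0.78, against at most 0.20 between different numbers). They are therefore called pairs, and limma's test was run without and with the replicate number as a block.

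With dexamethasone, 2 members rose with the replicate block and 0 fell. They were slc3a2.L, the heavy chain gene, and slc7a8.L, which encodes a light chain for neutral amino acids that works in one complex with that heavy chain. In the same fit 0.434% of all named genes rose (0.504% of those above background) and 0.301% fell. Both members were given as markers with the gene group, so these shares are no test of the group. Without the block 0 members passed, where 0.00615% of all probe sets rose, and the smallest adjusted p of a member was 0.270. At an unadjusted p under 0.05 there were 4 members without the block and 11 with it (7.41% and 20.4%), against 4.8% and 14% of named genes. Both counts include the 2 markers, so they are no test of the group either. The DEX and no_DEX arrays did not overlap for 3 members, all higher with dexamethasone, against 1.84% of named genes that were higher and 1.18% that were lower in this way. Of these 3, 2 were the markers. The third, slc7a2.1.L, named after its values were seen, lay at 3.99 on average, under background. All 4 pairs were higher for 10 of the 54 members, the 2 markers included, and lower for 6. Of the 11303 named genes these counts were 1413 and 1220. Agreement of 4 of 4 pairs was thus common, and by itself it singles out no gene named below.

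The heavy chain gene slc3a2.L read 8.84, 8.91, 7.81 and 7.98 in DEX replicates 1 to 4. In the no_DEX arrays it read 7.58, 7.41, 6.54 and 6.80. Every DEX array was above every no_DEX array, and the differences within pairs were 1.26, 1.50, 1.27 and 1.18. The means were 8.39 ± 0.57 and 7.08 ± 0.49 (SD, n = 4), a change of log2 1.30 or 2.47-fold, with a 95% interval of 1.11 to 1.50 in the fit with the block (limma adjusted p = 0.637, and 0.00455 with the block). The SDs reflect replicate numbers 1 and 2, which read higher than 3 and 4 in both groups. In the blocked fit the rise also passed on 3 pairs, whichever pair was dropped, at an adjusted p of 0.0142 to 0.0391. A second slc3a2.L probe set, at 3.45 under background, stood at log2 −0.04, and averaging both gave log2 0.63, which passed with the block (adjusted p = 0.0236).

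Its homeolog slc3a2.S read 10.62, 10.41, 10.10 and 10.57 with dexamethasone and 10.10, 10.21, 10.17 and 10.65 without, and the groups overlapped. The change was log2 0.14, with an interval of −0.12 to 0.40 with the block (adjusted p = 0.678). The kidney and gut heavy chain gene slc3a1.L, from a probe set with probes shared between transcripts, measured 5.69 ± 0.86 with dexamethasone and 5.71 ± 1.15 without (log2 −0.02). Of its pairs 1 was higher and 3 were lower.

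Among the light chain genes, slc7a8.L read 9.97, 10.08, 9.82 and 9.92 with dexamethasone. Without it the values were 9.29, 9.43, 9.04 and 9.36. The groups were well apart and tight, at 9.95 ± 0.11 and 9.28 ± 0.17, and the pairs differed by 0.68, 0.65, 0.78 and 0.57. The change was log2 0.67 or 1.59-fold, with an interval of 0.49 to 0.85 with the block (adjusted p = 0.270, and 0.0195 with the block). On 3 pairs the blocked change stayed between 0.63 and 0.70. It then passed only without pair 4 (adjusted p = 0.0422), and not without pair 1 (0.0622), pair 2 (0.120) or pair 3 (0.0988), each from fewer arrays.

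The other light chain genes did not pass in either fit. The homeolog slc7a8.S read 10.19, 10.46, 10.19 and 10.44 with dexamethasone and 9.41, 10.27, 9.70 and 10.46 without. It stood log2 0.36 higher (interval 0.06 to 0.66, adjusted p = 0.294 with the block), with differences of 0.79, 0.19, 0.49 and −0.02 in pairs 1 to 4. Without the block the interval was −0.14 to 0.87. The classic partner of the heavy chain, the large neutral amino acid carrier slc7a5.L, measured 8.70 ± 0.27 and 8.50 ± 0.29. Its log2 difference of 0.20 rested on pair 1, at 1.01, against −0.30, 0.05 and 0.05 in the others, and was −0.066 without that pair. The genes slc7a7.L and slc7a6.L, whose products exchange cationic for neutral amino acids, stood at log2 −0.10 and −0.12. The slc7a7.L pairs differed by −0.62, 0.21, 0.15 and −0.15, and its change was 0.069 without pair 1. A second slc7a6.L probe set, dimmer but above background at 5.63, stood at 0.01. The remaining light chain genes were under background: slc7a5.S, the cystine carrier gene slc7a9.L and slc7a13.S had means of 4.04, 3.51 and 3.48 and changes of log2 0.11, 0.34 and 0.01. The opposite-strand gene slc7a6os.L, taken by its symbol although it is no carrier, stood log2 0.16 higher without passing.

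**Figure D1:**
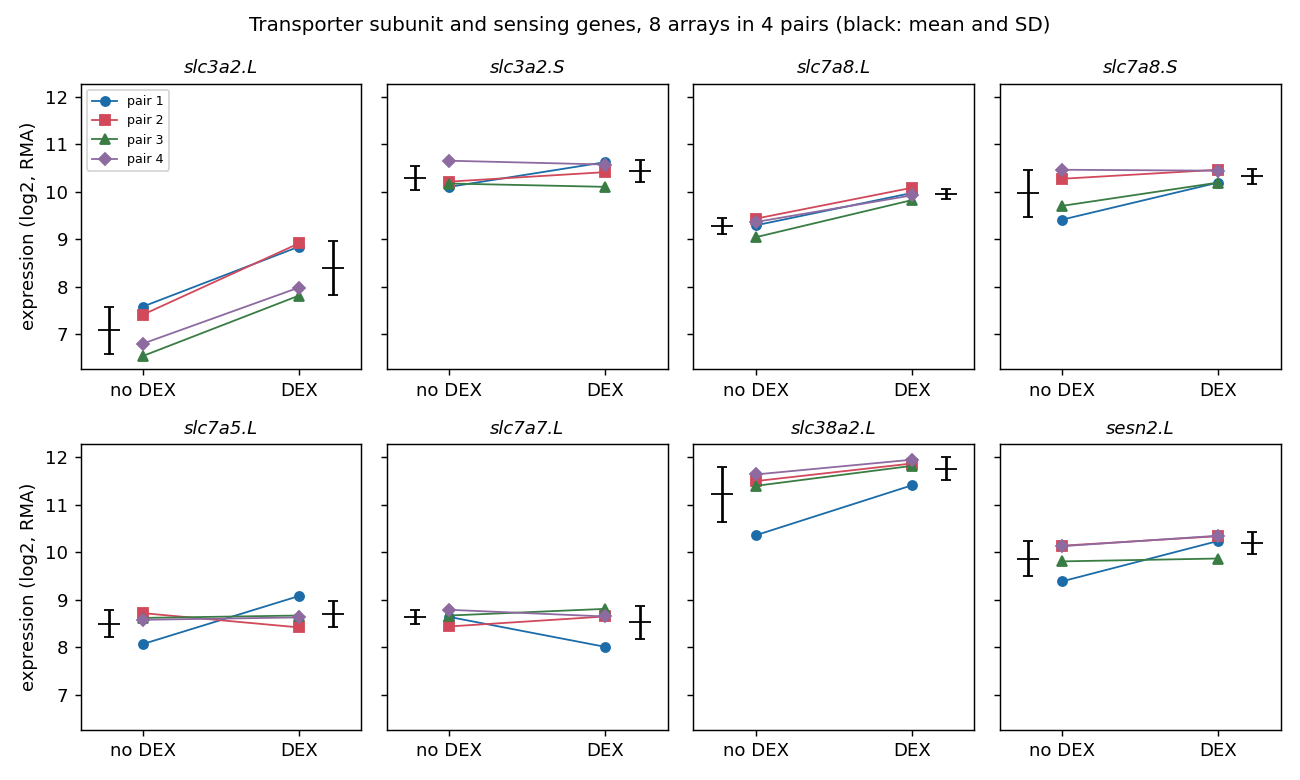
Expression (y axis, log2 RMA signal) without and with dexamethasone (x axis) for 8 member genes. Coloured lines join the arrays of a pair, and black bars give mean and SD over 4 arrays. All pairs of slc3a2.L and slc7a8.L climb by similar steps, slc3a2.S and slc7a7.L show no common direction, and the slc38a2.L and sesn2.L lines are steepest in pair 1.

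The difference between homeologs was tested directly, on the change of .L minus the change of .S, in a limma fit over all 2009 homeolog pairs of the array. For slc3a2 the .L gene changed by log2 1.16 more than the .S gene (interval 0.88 to 1.44 with the block), and the 4 pairs gave 0.75, 1.31, 1.33 and 1.26. This passed with the block (adjusted p = 0.0170) and not without it (0.835). It was the only one of the 10 member pairs to pass, against 0.348% of all homeolog pairs with the block. As slc3a2.L was a marker given with the gene group, this share is no test of the group. Without the block 0 of the 2009 passed, and 73 had an unadjusted p under 0.05. On 3 pairs the slc3a2 difference passed in the blocked fit only without pair 1 (adjusted p = 0.00963), while it was 0.0638, 0.0661 and 0.129 without pairs 2, 3 and 4. With all probe sets of a gene averaged, which brings in the dim slc3a2.L probe set, the difference shrank to 0.49 and did not pass (0.130).

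The next largest homeolog differences belonged to slc7a8, at log2 0.31, and slc1a5, at log2 0.29. Their intervals were 0.01 to 0.60 and 0.07 to 0.51 with the block. Without it they were −0.15 to 0.76 and 0.03 to 0.55. Neither difference passed (blocked adjusted p = 0.322 and 0.255). The slc1a5 difference was 0.114 with the probe sets of each gene averaged, which brings in dimmer slc1a5.L probe sets, also under background. The slc7a8.L change exceeded that of slc7a8.S in 3 of 4 pairs, so the data do not show that the homeologs of this light chain responded differently, nor that they responded alike. In the remaining 7 pairs the differences ran from −0.13 for kars1 to 0.20 for slc38a10. Both ends are uncertain, as the kars1.S probe set shares probes between transcripts and slc38a10.L lay under background, at 3.36.

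**Figure D2:**
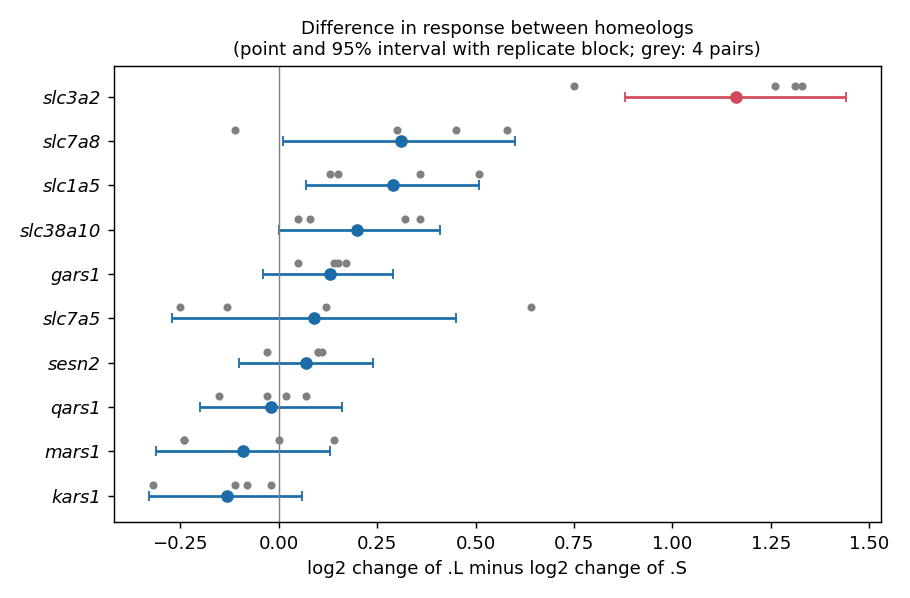
Change of the .L homeolog minus change of the .S homeolog (x axis, log2) for 10 member pairs (y axis). Coloured points and bars give the estimate and 95% interval with the replicate block, red where it passed, and grey dots give the 4 pairs. The slc3a2 interval, 0.88 to 1.44, lies apart from the other 9.

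In the remaining transporter families 0 members passed. The most changed was slc38a2.L, encoding a sodium-coupled carrier of small neutral amino acids, with the brightest signal of its family. It read 11.41, 11.87, 11.82 and 11.95 with dexamethasone and 10.36, 11.50, 11.40 and 11.64 without. It was higher in 4 of 4 pairs, with a change of log2 0.54 (interval 0.24 to 0.83, adjusted p = 0.130 with the block). Without the block the interval was −0.07 to 1.15. The lowest array was no_DEX replicate 1. Without that array the change was 0.25. A second slc38a2.L probe set gave log2 0.56, also without passing (0.189).

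The glutamine and neutral amino acid carrier slc1a5 was measured for both homeologs. The .S gene was bright and narrow, at 9.63 ± 0.05 with dexamethasone and 9.73 ± 0.08 without, and lower in 4 of 4 pairs by a mean of log2 −0.10 (adjusted p = 0.654 with the block). The .L gene was higher in 4 of 4 pairs, by log2 0.19 (0.441). Its second probe set, dimmer but above background, stood at −0.03, and the mean over all its probe sets changed by 0.015. Of the cationic carrier genes, slc7a3.L was the brightest, at 9.44 ± 0.16 and 9.40 ± 0.25, a difference of log2 0.04. The related slc7a4.L differed by log2 0.20 (0.425), and slc7a2.2.L was at 2.92, under background. The glutamate carrier gene slc1a3.L and slc38a10.L lay there too, at 3.25 and 3.36. Just above background, slc38a10.S measured 4.72 ± 0.25 and 4.82 ± 0.30 (log2 −0.09), and slc38a7.L, whose probe set shares probes between transcripts, 4.47 ± 0.09 and 4.61 ± 0.11 (log2 −0.15, lower in 4 of 4 pairs, adjusted p = 0.543 with the block). The other slc38a7.L probe sets, under background at 2.92 and 2.75, stood at 0.20 and 0.03. By family, the median changes were log2 0.16 for the 8 light chain genes, 0.12 for the 4 cationic carrier genes, 0.11 for the 5 slc38a genes and −0.10 for the 3 slc1a genes (0.045 without the dim slc1a3.L). Of these genes 5, 2, 4 and 2 were above background. The slc38a median was the change of slc38a10.L, which was not. Over all named genes the median was 0.01.

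Of the stress and sensing genes, 4 were measured, all above background, and 0 passed. They stood log2 0.34 (ddit3.L), 0.33 (sesn2.L), 0.26 (sesn2.S) and 0.08 (atf4.L) higher. The ATF4 gene was among the brightest members, with 11.84, 11.68, 11.38 and 11.33 in DEX and 11.67, 11.66, 11.41 and 11.18 in no_DEX, and the groups overlapped. The interval of its change was −0.10 to 0.26 with the block. The stress-response factor gene ddit3.L measured 5.14 ± 0.23 and 4.81 ± 0.14 and was higher in 4 of 4 pairs (adjusted p = 0.232 with the block). The sestrin 2 gene sesn2.L read 10.24, 10.34, 9.87 and 10.35 with dexamethasone and 9.39, 10.14, 9.81 and 10.13 without (0.347). Both sestrin homeologs differed most in pair 1, by 0.85 and 0.75, and without that pair sesn2.L stood at log2 0.16.

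Tissue markers moved in some of these pairs. The signal summed over the endoderm markers, on a log2 scale, was lowest in no_DEX replicate 1, at 12.53, against 13.12 in its DEX partner and 13.12 to 13.58 over the other 7 arrays. Pair 1, which holds this array, gave the widest differences of slc38a2.L, slc7a5.L, slc7a8.S and the sestrin genes, and the part of the array in them was not tested. For slc7a5.L the DEX array of the pair was also the highest of its group. The skeletal muscle sum was lower with dexamethasone in pairs 1 to 3, at 11.82, 11.18 and 11.48 against 12.68, 12.80 and 12.58. In pair 4 it was higher, at 11.24 against 10.79. The neural plate sum ran from 13.15 to 13.45 with dexamethasone and from 13.43 to 13.80 without. The notochord sum was lower with dexamethasone in 4 of 4 pairs, at 11.03, 10.71, 11.09 and 10.97 against 11.06, 10.93, 11.60 and 10.98. With the block, 1 of 17 neural plate, 1 of 7 notochord and 2 of 8 blood marker genes passed, and 0 of the endoderm, muscle and epidermis lists. In the same fit 0.434% of named genes rose and 0.301% fell. The directions of the marker genes that passed are not given here. The part of these tissues in the slc3a2.L and slc7a8.L changes, which were 1.18 and 0.57 in pair 4, was not tested.

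The 26 synthetase genes all had means above background, from 5.32 to 11.24, and 0 passed in either fit. At an unadjusted p under 0.05 there were 0 of 26 without the block and 3 of 26 with it, against 4.8% and 14% of named genes. Their changes were small, from log2 −0.28 to 0.19, with a median of −0.09. The direction was one-sided: 24 of 26 stood lower with dexamethasone (92.3%), against 47.9% of all named genes, whose median change was 0.01. By pair the synthetase medians were −0.22, −0.05, −0.06 and 0.01, and 23, 18, 16 and 10 of the 26 were lower. Over all named genes the medians were −0.02, 0.01, 0.02 and 0.02, and 6036, 5461, 5069 and 5273 of the 11303 were lower. The synthetase shift was thus widest in pair 1 and not seen in pair 4. Pair 1 holds no_DEX replicate 1, the array with the lowest summed endoderm marker signal, whose part in the shift was not tested. Without pair 1, 18 of 26 were lower with a median of −0.03, against 45.1% of named genes. These genes were read on the same arrays and are not independent of each other, and the list was not tested as a whole.

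The synthetases without the suffix 2, which serve the cytosol (the glycine and lysine enzymes also serve mitochondria), had a median of −0.09 over 19 genes, and the 7 mitochondrial enzymes with the suffix 2 had −0.07. The brightest was the threonine enzyme gene tars1.L, at 11.22 ± 0.12 and 11.25 ± 0.12, a difference of log2 −0.03. The largest sizes were for cars2.L, the mitochondrial cysteine enzyme gene. It read 5.56, 5.26, 5.38 and 5.27 with dexamethasone and 5.87, 5.70, 5.66 and 5.37 without, a change of log2 −0.28 with an interval of −0.48 to −0.09 with the block (adjusted p = 0.212). Without the block the interval was −0.57 to 0. The lysine enzyme gene kars1.L was also lower in 4 of 4 pairs, at 8.76 ± 0.15 against 9.01 ± 0.12 (log2 −0.24, 0.260). Its homeolog kars1.S stood at −0.11, with differences of −0.18, −0.09, −0.08 and −0.08. Its probe set shares probes between transcripts and is annotated to the same accession as kars1.L, so the reading is uncertain. A second, dimmer kars1.S probe set stood at −0.07, with differences of −0.32, −0.11, 0 and 0.13.

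The remaining cytosolic genes ranged from some with a narrow spread to some that rested on pair 1. The asparagine enzyme gene nars1.L was the narrowest, at 8.09 ± 0.06 with dexamethasone and 8.10 ± 0.06 without (log2 −0.01, blocked interval −0.18 to 0.16). The alanine enzyme gene aars1.L measured 10.12 ± 0.07 and 10.20 ± 0.12, and the serine enzyme gene sars1.L 10.08 ± 0.23 and 10.16 ± 0.20, each a difference of log2 −0.08. The genes of the glutamine enzyme, qars1.L and qars1.S, stood at −0.18 and −0.16 and were both lower in pairs 1 to 3 and higher in pair 4. A second, dimmer qars1.S probe set stood at −0.13, with differences of −0.68, 0.07, −0.10 and 0.19. The leucine enzyme gene lars1.L and the methionine enzyme gene mars1.L stood at −0.13 each, with −0.52 and −0.43 in pair 1 and no more than 0.14 in size in any other pair. Those for isoleucine (iars1.S), arginine (rars1.S) and valine (vars1.S) stood at −0.10, −0.09 and −0.11, and those for tyrosine (yars1.S), cysteine (cars1.S) and glycine (gars1.S) at −0.05, −0.04 and −0.02. A second iars1.S probe set stood at 0.07 and a second vars1.S probe set at 0.21, on the other side of 0, while another for vars1.S stood at −0.06.

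Of the mitochondrial enzymes, mars2.L and pars2.L, for methionine and proline, were lower in pair 1 alone, by log2 −0.60 and −0.59, and stood 0.01 to 0.24 higher in each other pair. Their means of −0.04 and −0.07 thus had the sign of 1 pair of 4. The leucine enzyme gene lars2.L stood at −0.07, with 7.39 ± 0.25 and 7.46 ± 0.29.

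The change of the tryptophan enzyme gene wars1.L rested mostly on 1 array. The gene read 6.89, 6.99, 7.06 and 7.29 with dexamethasone and 8.02, 7.02, 7.12 and 7.16 without. Its log2 difference of −0.27 became −0.045 without no_DEX replicate 1, and 0.011 without pair 1. Among the mitochondrial enzymes the brightest, hars2.L, stood at −0.13 and the dimmest, aars2.L, at −0.14. The dimmest cytosolic gene, mars1.S, stood at −0.04. The genes that stood higher were the mitochondrial arginine enzyme gene rars2.S, at 0.19, and the glycine enzyme gene gars1.L, at 0.11. Both were higher in 4 of 4 pairs without passing, and are named because they were the exceptions.

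**Figure D3:**
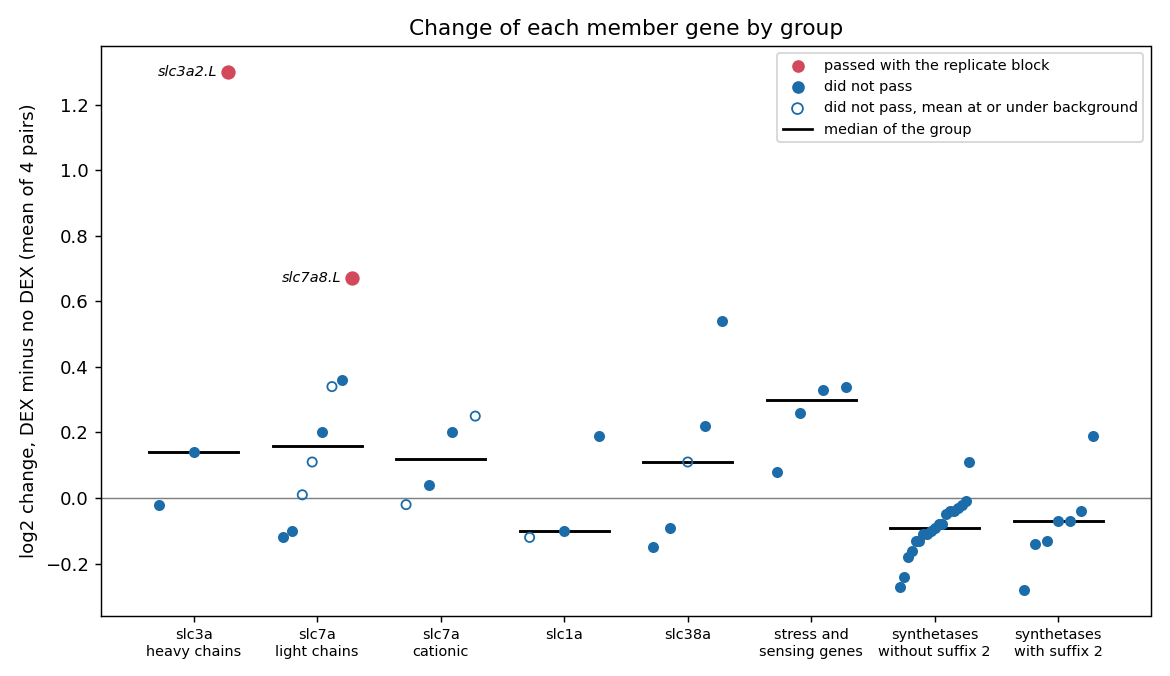
Log2 change with dexamethasone (y axis, mean of 4 pairs) of the member genes in 8 groups (x axis), with slc7a6os.L left out. Red points passed with the replicate block, blue points did not, open circles had a mean at or under background, and black bars are group medians. The points slc3a2.L and slc7a8.L stand above the rest, while 24 of the 26 synthetases lie just below 0.

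Some members differed between replicate numbers. In limma's F test on the replicate number, given the treatment, 12 of 54 members passed (22.2%). That is near the 20.7% of all probe sets, the 21.7% of named genes and the 24.4% of those above background that passed, so the members did not stand apart in this. The widest was slc38a5.S, a carrier of glutamine and related amino acids. It read 8.94, 6.67, 5.93 and 5.85 in DEX and 8.40, 6.94, 5.71 and 5.44 in no_DEX. Replicate number 1 was high in both groups, and the means of the numbers spanned 3.03 on the log2 scale (adjusted p = 0.000126). The change with dexamethasone was 0.22, although a span over 4 means is not the same measure as a difference of 2. The summed blood marker signal, with 4 of 8 genes above background, was also highest in replicate number 1, at 11.09 in DEX and 11.31 in no_DEX. The order of the other numbers differed. The blood sum was 10.32 and 10.23 in number 2 and higher, at 10.88 and 10.76, in number 3, where slc38a5.S was lower than in number 2. In number 4 the blood sum was 10.61 and 10.09. The part of blood cells was not tested.

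Other members had other patterns. The signal of slc3a1.L was highest in replicate number 4, at 6.82 and 7.36, against 4.72 to 5.72 in the other arrays (adjusted p = 0.00326). For slc3a2.L numbers 1 and 2 averaged 8.21 and 8.16 and numbers 3 and 4 averaged 7.18 and 7.39 (0.00173). The valine enzyme gene vars1.S was likewise lower in numbers 3 and 4, at 8.98 and 9.43, than in 1 and 2, at 9.76 and 9.75 (0.00599), and its other probe sets passed the same test (0.00389 and 0.0101). Of the synthetases 6 of 26 passed, and of the 23 transporter genes 5 did.

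**Figure D4:**
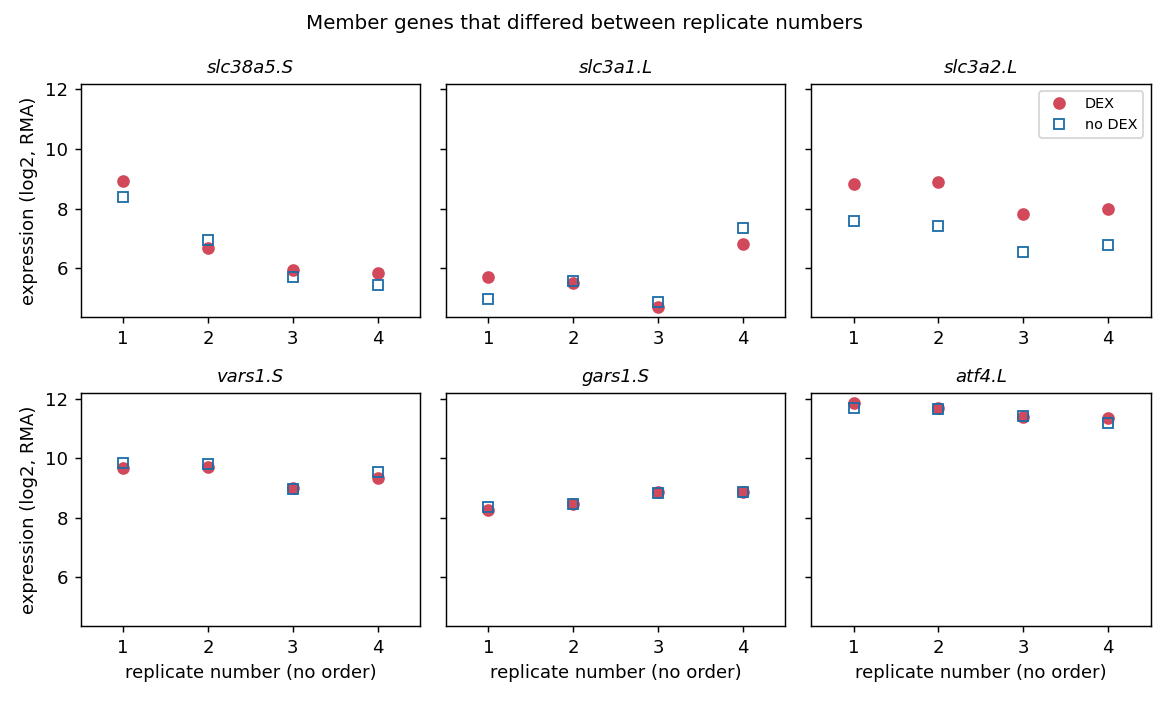
Expression (y axis, log2 RMA signal) by replicate number (x axis, numbers have no order) for 6 of the 12 members that differed between replicate numbers, with filled circles for DEX and open squares for no_DEX. The replicate numbers of slc38a5.S span 3.03, with both arrays of a number close together, whereas slc3a2.L shows both a difference between numbers and a gap between the groups in each.

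Other genes of amino acid supply and its sensing were read from 5 lists, with 90 genes measured. With the block 0 of the 90 rose and 0 fell, where 0.434% of all named genes rose and 0.301% fell, and 0 passed without it. At shares this low, 0 of 90 does not set these genes apart. At an unadjusted p under 0.05 there were 4 without and 8 with the block (4.44% and 8.89%, against 4.8% and 14% of named genes). Their median change was log2 0.01. The list for serine, glycine and proline synthesis, which also holds folate and other enzymes, had 22 genes measured. Of these 15 stood higher (of all 11303 named genes 5888 did), with a median of 0.05. The largest was mthfd2l.S, a mitochondrial folate enzyme gene, at 10.20 ± 0.10 against 9.82 ± 0.08 (log2 0.38, adjusted p = 0.131 with the block). Among the 26 genes of the integrated stress response 9 stood higher and 17 lower. The transcription factor gene cebpb.L was at 6.21 ± 0.06 against 6.58 ± 0.14 (log2 −0.38, 0.104), while xbp1.L, a factor of the unfolded protein response, stood log2 0.32 higher (0.156). The DEX and no_DEX arrays did not overlap for 3 of the 90 genes that were higher, mthfd2l.S, gpt.L (log2 0.29) and castor1.L (log2 0.32), and 1 that was lower, cebpb.L, against 1.84% and 1.18% of named genes. Of these, gpt.L and castor1.L are named for this count, after their values were seen. The castor1.L signal averaged 4.54, just above background, and its no_DEX arrays read 4.48, 4.37, 4.36 and 4.28. The 22 genes of amino acid sensing by mTORC1 had a median of 0.03.

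Of the 10 genes of other amino acid carriers, slc43a2, a carrier of large neutral amino acids, had homeologs that went opposite ways. The slc43a2.S gene read 6.09, 7.22, 5.30 and 5.04 with dexamethasone and 5.50, 5.50, 4.79 and 4.90 without (log2 0.74, adjusted p = 0.207 with the block). The difference was widest in pair 2, at 1.72, and the change was 0.418 without that pair and 0.308 without DEX replicate 2 alone. The slc43a2.L gene was lower in 4 of 4 pairs (log2 −0.33, 0.202). The .L change minus the .S change was log2 −1.07 (interval −1.56 to −0.59 with the block) and did not pass over all homeolog pairs (adjusted p = 0.117 with and 0.142 without the block). The 10 remaining synthetase and scaffold genes, which include the glutamate and proline enzyme gene eprs1.L, at log2 −0.01, ran from −0.11 to 0.07.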

How the data were processed

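Total RNA was extracted with Trizol, labelled with biotin and hybridised to 8 Affymetrix arrays, per the labels' protocols. The log2 expression values were used as deposited. They come from RMA, per the submitters' processing notes, and its version is not given in the sources used here. RMA understates changes of dim probe sets. Of 32635 probe sets, 96 controls were dropped and 32539 tested. Array medians were 6.02 to 6.12, so no scaling was added. The number of arrays limits the precision.

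Symbols came from the platform annotation, which gave 1 symbol to 15495 probe sets. All 54 member gene identifiers were found in the NCBI gene table (Xenopus_laevis_v10.1), with 0 symbols altered. The brightest probe set stood for a gene.

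Tests used limma 3.58.1 (lmFit, then eBayes) under R 4.3.3. They were two-sided, with Benjamini-Hochberg adjustment over all probe sets, or over all homeolog pairs, and a threshold of 0.05. The main comparison had no block. The replicate number was an alternative block: it comes from the titles, which do not say whether it marks a clutch or a day, and every same-numbered pair of arrays correlated above 0.1. The labels call the arrays biological replicates. The code was tested on simulated data. The F test on replicate numbers, the blocked fits with a second change and the medians without a pair were added after seeing the data.

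Members and lists were chosen with earlier results of these data known. Values are given for members that passed, the heavy and light chains, the stress genes, the 12 largest changes above background, the brightest and dimmest of each group, and homeolog pairs. Further synthetases, slc38a10.S and slc38a7.L are named outside this rule, with their values known. The gene slc7a6os.L was kept apart from the light chains. Promoter motifs were not analysed here.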

Additional observations from a re-analysis of the deposited data

Results flagged for a closer look

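Among 74 groups of 4 arrays of the named genes, 4 held an array whose gap to the next exceeded Dixon's critical share of the group's range. Chance flags about 1 in 20 such groups. The slc7a9.L signal was lowest in DEX replicate 3, at 2.84, against 3.88 to 4.07 in the other 3 DEX arrays, all under background. For tars1.L, DEX replicate 4 was lowest at 11.04, against 11.27 to 11.30. For wars1.L, no_DEX replicate 1 was highest at 8.02, against 7.02 to 7.16. For mthfd2l.S, DEX replicate 1 was highest at 10.35, against 10.14 to 10.16.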

How the results depend on the processing

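The replicate block decided the calls. It moved the count of probe sets from 2 to 180, of members from 0 to 2 and of homeolog pairs from 0 to 7, and left pathway genes at 0. With the block and array medians centred there were 169 probe sets, 2 members and 7 homeolog pairs, and with dim probe sets left out 150, 2 and 13. With an intensity trend and robust variance there were 253 probe sets and 2 members (homeolog pairs were not run with that setting), and with all probe sets of a gene averaged 159, 2 and 6. With the block and pair 1, 2, 3 or 4 left out there were 34, 4, 26 and 120 probe sets, 1, 1, 1 and 2 members, and 6, 3, 1 and 2 homeolog pairs. Without the block and with 1 array left out at a time, 0 to 3 probe sets, 0 members and 0 to 1 homeolog pairs passed, the 1 when no_DEX replicate 4 was left out.

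Of 765 alternative values for 37 named genes, 713 kept direction and side of the threshold, 15 passed only with the block (9 for slc3a2.L and 6 for slc7a8.L), and 37 changed sign, all on leaving out arrays and none of them called. Without the block, leaving out arrays gave ranges of −0.473 to 0.817 for slc38a5.S, −0.006 to 0.185 for slc38a10.L, −0.393 to 0.534 for slc3a1.L, −0.09 to 0.103 for slc7a3.L, −0.055 to 0.024 for slc7a2.2.L, −0.041 to 0.207 for slc7a5.S, −0.029 to 0.078 for slc7a13.S, −0.198 to 0.069 for slc7a7.L, −0.021 to 0.156 for atf4.L, −0.076 to 0.034 for tars1.L and −0.149 to 0.081 for mars1.S. The homeolog differences ran from −0.007 to 0.256 for gars1, −0.151 to 0.011 for mars1, −0.111 to 0.194 for slc7a5 and −0.077 to 0.032 for qars1. With the block, values of the other sign were 0.004, 0.033 and 0.159 for slc3a1.L without pairs 2, 3 and 4, −0.023 for slc7a3.L without pair 2, and 0.04 and 0.008 for slc7a2.2.L without pairs 2 and 3. They were −0.01 and −0.004 for slc7a13.S without pairs 2 and 3, and 0.006 and 0.013 for mars1.S without pairs 1 and 3. Without pair 1 they were −0.066 for slc7a5.L, 0.069 for slc7a7.L, 0.011 for wars1.L and −0.088 for the slc7a5 homeologs, and without pair 4 the qars1 homeologs gave 0.021. The cause was not tested. The median of the 3 slc1a genes went from −0.10 to 0.045 with dim probe sets left out, which removes 1 gene. Signal over background limits the 7 members at or under 4.40.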
